A study of Mus musculus with 8 samples.

Results

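Glycolysis splits glucose into pyruvate and feeds lactate production, the pentose phosphate pathway branches off near its start to make NADPH and ribose, and the hypoxia-inducible factors (Hif) set the expression of many genes of both. In well oxygenated cells the Egln prolyl hydroxylases mark the Hif alpha subunits, and the von Hippel-Lindau protein Vhl then directs their destruction. When oxygen is low the alpha subunits persist and raise the transcription of glucose transporters, most glycolytic enzymes and a set of targets outside glycolysis, among them mitophagy receptors, carbonic anhydrases and collagen hydroxylases. Here 42 genes of these pathways were followed on the arrays, chosen by name: 16 glycolytic enzymes, 5 genes of glucose and lactate transport and of the control of glycolysis, 4 pentose phosphate enzymes, 5 Hif subunits and oxygen sensing genes, and 12 Hif targets outside glycolysis. Of these, 39 were measured by a probe set with exactly 1 gene symbol, among 19937 genes so measured in all. Gpi1, Eno1 and G6pdx had no such probe set and were not analysed. Where several such probe sets measured a gene, the brightest over the 8 arrays stood for it.

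The arrays profiled RNA of NMuMG cells, an untransformed mouse mammary gland epithelial cell line that undergoes an epithelial to mesenchymal transition (EMT) under TGFβ, used as the E9 subclone. Cells transfected with a pool of 2 siRNAs against Klf4 (siKlf4), a zinc-finger transcription factor, were set against cells transfected with a control siRNA (siControl), to find what changes when Klf4 is depleted before and during EMT. The 4 groups, of 2 Affymetrix arrays each, were siKlf4 with 2 ng/ml TGFβ for 2 days (siKlf4 + TGFβ), siKlf4 without TGFβ, siControl with the same TGFβ treatment (siControl + TGFβ) and siControl without TGFβ. All groups were the same parental cells after transfection, so none was untransfected. No source used here tells if the arrays of a pair were separate transfections, so every p-value measures only how far these arrays spread, and part of that spread may be technical. Values are on the log2 scale, 1 unit being a doubling, and a gene counts as called where the limma test, fitted on all 8 arrays and adjusted by Benjamini-Hochberg over the 19937 genes, gave an adjusted p under 0.05. In bulk RNA, fewer cells of a type and less RNA per cell cannot be told apart.

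Klf4 itself had log2 values of 7.43 and 7.24 on the siKlf4 + TGFβ arrays, 8.03 and 7.91 on the siKlf4 arrays, 7.46 and 7.46 on the siControl + TGFβ arrays and 8.60 and 8.43 on the siControl arrays. It was lower on the siKlf4 than on the siControl arrays without TGFβ, by a log2 difference of -0.54 ± 0.10 (SE, adjusted p = 0.00369), while with TGFβ the log2 difference was -0.13 ± 0.10 (adjusted p = 0.444). Among 11 measured TGFβ-inducible genes, 9 were higher in siKlf4 against siControl both without and with TGFβ, whereas TGFβ against none gave 1 higher and 2 lower in siControl and 3 higher and 1 lower in siKlf4. Klf4 was lower with TGFβ than without in siControl as labelled (-1.05, adjusted p = 0.000357). The 11 TGFβ-inducible genes had a median log2 difference of 1.60 for siKlf4 without TGFβ and 1.85 with it. For TGFβ against none their median was -0.09 in siControl and 0.14 in siKlf4. Whether the labels of the siKlf4 and siControl + TGFβ arrays were exchanged was not tested. All group names here mean arrays as labelled, so a difference given for siKlf4 may be one of TGFβ, and the reverse. Under an exchange, the values given for siKlf4 without TGFβ and for TGFβ in siControl would change places, and so would those for siKlf4 with TGFβ and for TGFβ in siKlf4. The comparison of siKlf4 + TGFβ with siControl uses neither of these groups, but it changes siRNA and TGFβ together. Its differences therefore cannot be credited to Klf4 depletion or to TGFβ alone. The interaction of siKlf4 and TGFβ is the same number if the labels of these groups are exchanged. The results are led by that comparison and the interaction. Of 8 epithelial markers, whose mean levels ran between 3.98 and 13.2, Epcam and Cldn7 were low, at 4.01 and 4.33 on the siKlf4 + TGFβ and 3.97 and 4.38 on the siControl arrays. Between these groups Cdh1, Krt8, Krt18 and Krt7 were higher with siKlf4 + TGFβ and Krt19 was lower. The average level per array was 4.44 to 4.83 for leukocyte, 4.31 to 4.49 for endothelial and 3.73 to 3.87 for adipocyte markers. Cd68 was the brightest leukocyte marker, with a mean of 6.72, and was called lower in siKlf4 + TGFβ against siControl (-0.69). Of 13 proliferation genes, 13 were lower on the siKlf4 + TGFβ than on the siControl arrays, with a median log2 difference of -1.83.

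Across the 4 groups, 31 of the 39 genes differed in the moderated F test, where 33.3% of all genes did. They were 10 of 14 glycolytic enzymes, 4 of 5 transport and regulator genes, 3 of 3 pentose phosphate enzymes, 4 of 5 oxygen sensing genes and 10 of 12 Hif targets outside glycolysis. The other 8 were Hk1, Pgam1, Eno2, Ldhb, Slc16a3, Hif1a, Car9 and Adm. Of these, Eno2, Ldhb, Slc16a3, Car9 and Adm had values between 3.94 and 5.41 on all arrays, under the median of 5.60 over all genes, and the table holds no background call, so whether their probe sets measured RNA at all is unknown. On the siKlf4 + TGFβ arrays 5 of the 39 genes were higher and 19 lower than on the siControl arrays. Over all genes 14.7% were higher and 15.3% lower, so the lower calls stood above that background and the higher calls did not. This background was not matched for expression level. Among all genes, the mean levels of the 39 ran from percentile 28.9 (Car9) to 99.9 (Pgam1). The part of level in the excess was not tested. The values of the pairs of arrays did not overlap for 5 genes above and 29 below in that comparison, while 58.1% of all genes were separated in this way. The median log2 difference of the 39 genes was -0.23 there, against -0.01 over all genes.

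**Figure D1:**
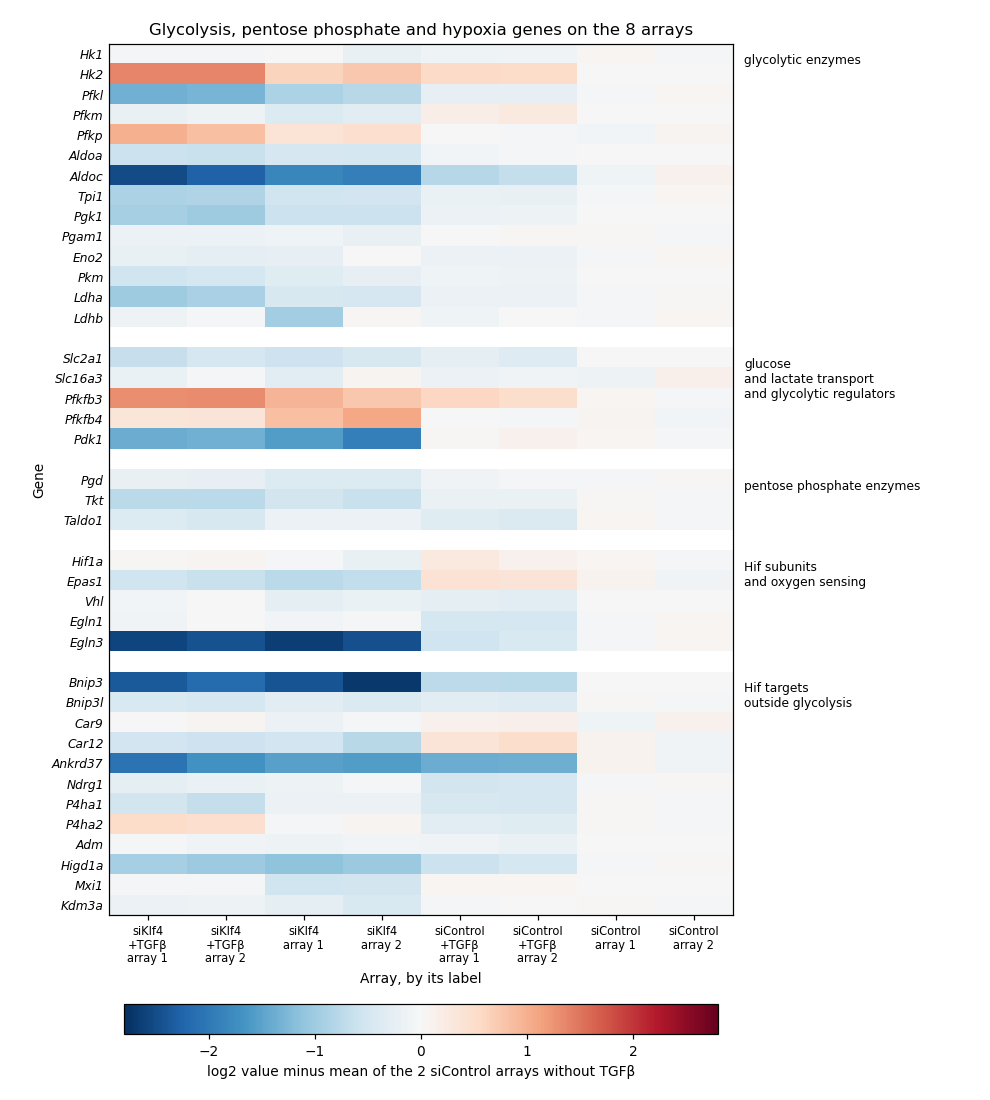
Heat map of the 39 measured genes (rows, by pathway list) on the 8 arrays (columns, by label), coloured by the log2 value minus the mean of the 2 siControl arrays without TGFβ. Egln3, Bnip3, Pdk1 and Aldoc are blue on the 4 siKlf4 arrays, and Hk2 and Pfkfb3 are red there and paler red on the siControl + TGFβ arrays.

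In cells without TGFβ, siKlf4 against siControl gave 4 calls higher and 21 lower (9.98% and 9.71% of all genes), and the median log2 difference was -0.35. In cells with TGFβ, it gave 8 higher and 16 lower (12.3% and 11.9% of all genes), and the median was -0.15. TGFβ against none gave 4 higher and 12 lower in siControl (5.81% and 6.65% of all genes; median -0.15) and 5 higher and 7 lower in siKlf4 (6.01% and 6.87%; median 0.04). Between siKlf4 without TGFβ and siControl + TGFβ, 7 genes were higher and 18 lower on the siKlf4 arrays (11.5% and 10.5%). These comparisons share arrays with each other, so their counts are not independent. When each array was left out in turn, 23 of the 24 calls between siKlf4 + TGFβ and siControl held every time, against 20 of 25 for siKlf4 without TGFβ, 20 of 24 for siKlf4 with TGFβ, 6 of 16 for TGFβ in siControl and 5 of 12 for TGFβ in siKlf4. The exception in the comparison of siKlf4 + TGFβ with siControl was Pfkfb4. Its call was lost on leaving out siControl array 2 (log2 difference 0.28) or either siKlf4 + TGFβ array.

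The core of the Hif binding element reads ACGTG or GCGTG, and 5 promoters are shown to place these letters beside the genes that moved most: the 3 largest falls and the 2 largest rises between siKlf4 + TGFβ and siControl among genes with 1 listed start. They run from 250 bases before to 50 bases after the start, 5′ to 3′ on the strand of the gene, from RefSeq on build GRCm38.p6, and capitals mark ACGTG or GCGTG on either strand (CACGT and CACGC where the match is on the other strand).
Egln3 (chr12:54203825-54204124, minus strand): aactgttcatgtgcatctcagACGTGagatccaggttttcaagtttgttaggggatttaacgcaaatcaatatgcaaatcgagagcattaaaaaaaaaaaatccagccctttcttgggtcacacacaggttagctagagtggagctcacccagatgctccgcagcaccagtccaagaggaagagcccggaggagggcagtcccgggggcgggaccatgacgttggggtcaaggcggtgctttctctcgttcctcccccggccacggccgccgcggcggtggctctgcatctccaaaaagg
Bnip3 (chr7:138909457-138909756, minus strand): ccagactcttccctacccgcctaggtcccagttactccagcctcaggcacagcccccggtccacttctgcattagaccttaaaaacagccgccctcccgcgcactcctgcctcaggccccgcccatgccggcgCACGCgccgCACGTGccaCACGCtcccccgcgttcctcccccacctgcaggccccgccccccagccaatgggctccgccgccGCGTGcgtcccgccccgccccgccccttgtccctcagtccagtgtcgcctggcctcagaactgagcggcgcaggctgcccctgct
Ankrd37 (chr8:45999801-46000100, minus strand): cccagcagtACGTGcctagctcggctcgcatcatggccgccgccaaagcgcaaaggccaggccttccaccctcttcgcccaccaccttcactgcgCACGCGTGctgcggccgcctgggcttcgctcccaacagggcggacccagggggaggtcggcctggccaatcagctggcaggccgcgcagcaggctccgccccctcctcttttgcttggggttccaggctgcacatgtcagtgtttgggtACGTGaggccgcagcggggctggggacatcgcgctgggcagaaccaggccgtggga
Hk2 (chr6:82774405-82774704, minus strand): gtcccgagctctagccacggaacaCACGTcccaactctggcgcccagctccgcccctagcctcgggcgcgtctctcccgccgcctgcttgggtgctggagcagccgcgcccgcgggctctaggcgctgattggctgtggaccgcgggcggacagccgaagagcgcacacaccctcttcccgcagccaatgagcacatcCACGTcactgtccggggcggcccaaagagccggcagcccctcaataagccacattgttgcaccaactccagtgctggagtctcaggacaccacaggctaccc
Pfkp (chr13:6648722-6649021, minus strand): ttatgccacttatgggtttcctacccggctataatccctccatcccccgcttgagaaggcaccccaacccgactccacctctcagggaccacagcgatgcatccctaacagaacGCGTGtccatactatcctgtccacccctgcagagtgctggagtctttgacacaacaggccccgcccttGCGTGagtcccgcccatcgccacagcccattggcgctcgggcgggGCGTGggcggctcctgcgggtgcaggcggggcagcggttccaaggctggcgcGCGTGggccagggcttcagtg
The Bnip3 promoter held the palindrome CACGTG, which matches ACGTG on both strands, as well as 3 matches to GCGTG. In Ankrd37, ACGTG began at bases -241 and -6 from the start, and in Egln3 the single match began at base -229. The promoters of Hk2 and Pfkp, which were higher, also held matches, 2 to ACGTG in Hk2 and 4 to GCGTG in Pfkp. RefSeq promoters were listed for 39 of the 42 genes, 57 promoters in all, and not for Epas1, Bnip3l and Ndrg1. ACGTG occurred in 47.4% of the 57, against 19.6% of 32851 mouse promoters, GCGTG in 52.6% against 32.4%, and either in 75.4% against 43.8%. Some of the 57 are overlapping stretches of the same gene, as for Aldoa and Eno1, so they are not independent. The 32851 promoters were not matched to the 57 for base content. The share with either was 74.1% of 27 promoters of glycolytic enzymes and 71.4% of 14 promoters of Hif targets outside glycolysis. A match is a stretch of letters and not a bound site.

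Among the 14 glycolytic enzymes, 2 were higher and 7 lower on the siKlf4 + TGFβ than on the siControl arrays, with a median log2 difference of -0.38. Over all genes 14.7% were higher and 15.3% lower, so that the number of higher enzymes was at the background. The falls were at phosphofructokinase (Pfkl), aldolase (Aldoa, Aldoc), triosephosphate isomerase (Tpi1), phosphoglycerate kinase (Pgk1), pyruvate kinase (Pkm) and lactate dehydrogenase (Ldha), and the rises were a hexokinase (Hk2) and a phosphofructokinase (Pfkp). Aldoc, an aldolase isozyme best known from brain, had log2 values of 7.20 and 7.43 on the siKlf4 + TGFβ arrays, 7.88 and 7.80 on the siKlf4 arrays, 8.91 and 9.04 on the siControl + TGFβ arrays and 9.59 and 9.82 on the siControl arrays. Every siKlf4 array lay below every siControl array, and within each siRNA the TGFβ arrays lay below the others. The log2 difference between siKlf4 + TGFβ and siControl was -2.39 ± 0.11 (SE), a 5.24-fold decrease (adjusted p = 5.64e-07). Without TGFβ it was -1.87 for siKlf4 against siControl (adjusted p = 6.24e-06), and with TGFβ -1.66 (adjusted p = 7.06e-06). TGFβ against none, as labelled, gave -0.73 in siControl (adjusted p = 0.00325) and -0.52 in siKlf4 (adjusted p = 0.0145). The second call was lost without siKlf4 + TGFβ array 1 (-0.41) and without siKlf4 array 1 (-0.49).

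Hk2, the inducible hexokinase that phosphorylates incoming glucose, went the other way. Its log2 values were 9.70 and 9.71 on the siKlf4 + TGFβ arrays, 8.97 and 9.08 on the siKlf4 arrays, 8.88 and 8.84 on the siControl + TGFβ arrays and 8.34 and 8.34 on the siControl arrays. The siKlf4 + TGFβ arrays were the highest, the siControl arrays the lowest and no groups overlapped. Hk2 rose by a log2 difference of 1.36 ± 0.08 (2.57-fold, adjusted p = 1.75e-06) between siKlf4 + TGFβ and siControl, 0.69 for siKlf4 without TGFβ (adjusted p = 0.000235) and 0.52 for TGFβ in siControl (adjusted p = 0.00287). The interaction estimate of 0.15 was not called (adjusted p = 0.656, 95% interval -0.10 to 0.40). Hk1, the constitutive hexokinase, was not called in any comparison with its brightest probe set, for which a limit is given below.

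The 3 phosphofructokinase genes, which encode the enzyme of the committed step, moved in opposite directions. Pfkl, the liver type, had log2 values of 8.47 and 8.52 on the siKlf4 + TGFβ arrays, 8.93 and 9.03 on the siKlf4 arrays, 9.59 and 9.58 on the siControl + TGFβ arrays and 9.76 and 9.88 on the siControl arrays. The siKlf4 + TGFβ arrays were the lowest and the siControl arrays the highest, with no overlap between groups, and the log2 difference between these 2 groups was -1.33 ± 0.08 (2.51-fold lower, adjusted p = 2.99e-06). Pfkp, the platelet type, had log2 values of 6.31 and 6.15 on the siKlf4 + TGFβ arrays, 5.69 and 5.78 on the siKlf4 arrays, 5.30 and 5.27 on the siControl + TGFβ arrays and 5.23 and 5.40 on the siControl arrays, so that both siKlf4 groups lay above both siControl groups, which overlapped each other. Pfkp was higher by 0.92 ± 0.09 (1.89-fold, adjusted p = 6.12e-05) on the siKlf4 + TGFβ arrays. Pfkm, the muscle type, had log2 values of 9.97 and 10.04 on the siKlf4 + TGFβ arrays, 9.81 and 9.86 on the siKlf4 arrays, 10.37 and 10.45 on the siControl + TGFβ arrays and 10.18 and 10.19 on the siControl arrays. It was lower in siKlf4 against siControl both without TGFβ (-0.35, adjusted p = 0.0112) and with TGFβ (-0.40, adjusted p = 0.00433), and its difference between siKlf4 + TGFβ and siControl was -0.18 (adjusted p = 0.133). The call of Pfkp for siKlf4 without TGFβ was lost on leaving out siControl array 1 (log2 difference 0.34) or siKlf4 array 2 (0.38). That of Pfkm was lost on leaving out siKlf4 array 1 (-0.33).

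Enzymes of the later steps fell by smaller amounts than Aldoc. Pgk1, which forms the first ATP of the pathway, had log2 values of 11.44 and 11.35 on the siKlf4 + TGFβ arrays, 11.75 and 11.76 on the siKlf4 arrays, 12.20 and 12.21 on the siControl + TGFβ arrays and 12.35 and 12.37 on the siControl arrays, and Ldha, which reduces pyruvate to lactate, had 11.56 and 11.63 (siKlf4 + TGFβ), 12.09 and 12.07 (siKlf4), 12.38 and 12.38 (siControl + TGFβ) and 12.52 and 12.57 (siControl). In both genes the 2 siControl groups lay above the 2 siKlf4 groups, and siKlf4 + TGFβ was the lowest. Between siKlf4 + TGFβ and siControl, Pgk1 differed by -0.96 ± 0.08 (1.95-fold lower, adjusted p = 1.14e-05). Ldha differed by -0.95 ± 0.08 (1.93-fold lower, adjusted p = 1.26e-05). Tpi1 (-0.86), Aldoa (-0.60) and Pkm (-0.53) were lower there too, with adjusted p-values of 3.2e-05, 0.00019 and 0.000654. The fall of Pkm without TGFβ, -0.28, was lost on leaving out 7 of the 8 arrays in turn, with an adjusted p of up to 0.129 without siKlf4 array 1. For TGFβ against none, Hk2 was called higher and Aldoc lower of the 14 in siControl, near the shares of 5.81% higher and 6.65% lower over all genes. With limma's trend and robust options 2 were called higher and 5 lower. In siKlf4 Hk2 and Pfkp were higher and Pfkl, Aldoc, Tpi1, Pgk1 and Ldha lower (6.01% and 6.87% of all genes). The median log2 difference was -0.11 in both, and limma called 0 of the 14 in the interaction, with 1 above and 1 below 0 at an unadjusted p under 0.05 and 1 called lower with the trend and robust options. In siKlf4 the call of Tpi1 (-0.31) was lost on leaving out 6 of 8 arrays (adjusted p up to 0.189 without siKlf4 + TGFβ array 1) and that of Pgk1 (-0.36) on leaving out 3 (up to 0.125 without siKlf4 + TGFβ array 2). The calls of Pfkl (-0.49) and Pfkp (0.49) there were lost without siKlf4 + TGFβ array 1 (adjusted p = 0.0513 and 0.0829). Pgam1, Eno2 and Ldhb were called nowhere, and the Ldhb value of siKlf4 array 1, 4.29, stood apart from the 5.13 to 5.31 of the other arrays.

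The genes that move glucose or steer the pathway divided. Pdk1, a kinase that holds pyruvate dehydrogenase inactive and so keeps pyruvate out of mitochondria, had log2 values of 6.02 and 6.07 on the siKlf4 + TGFβ arrays, 5.85 and 5.50 on the siKlf4 arrays, 7.44 and 7.54 on the siControl + TGFβ arrays and 7.48 and 7.35 on the siControl arrays. The siKlf4 groups lay more than 1 log2 unit below the siControl groups, which overlapped each other. Pdk1 fell by 1.74 ± 0.12 without TGFβ (3.33-fold, adjusted p = 1.24e-05), by 1.44 with TGFβ (2.71-fold, adjusted p = 2.06e-05) and by 1.37 between siKlf4 + TGFβ and siControl (2.58-fold, adjusted p = 1.98e-05). TGFβ was not called for it in siControl (0.07, adjusted p = 0.777) or in siKlf4 (0.37, adjusted p = 0.0771). Slc2a1, the glucose transporter Glut1, had log2 values of 10.35 and 10.53 on the siKlf4 + TGFβ arrays, 10.40 and 10.54 on the siKlf4 arrays, 10.72 and 10.62 on the siControl + TGFβ arrays and 10.97 and 11.01 on the siControl arrays, with the siControl arrays above all others. It differed by -0.55 ± 0.09 between siKlf4 + TGFβ and siControl (1.47-fold lower, adjusted p = 0.00159) and by -0.52 for siKlf4 without TGFβ (adjusted p = 0.0038).

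Pfkfb3 and Pfkfb4, bifunctional enzymes that set the level of an activator of phosphofructokinase, were both higher in siKlf4 against siControl. For TGFβ against none in siKlf4, as labelled, they were called in opposite directions. Pfkfb3 had log2 values of 8.07 and 8.09 on the siKlf4 + TGFβ arrays, 7.71 and 7.53 on the siKlf4 arrays, 7.34 and 7.26 on the siControl + TGFβ arrays and 6.82 and 6.71 on the siControl arrays. No groups overlapped and the order ran from siKlf4 + TGFβ at the top to siControl at the bottom, with a log2 difference between these of 1.32 ± 0.09 (2.49-fold, adjusted p = 5.01e-06). For TGFβ against none, as labelled, Pfkfb3 was higher in siControl (0.53, adjusted p = 0.0054) and in siKlf4 (0.46, adjusted p = 0.00924). The first call was lost without siControl + TGFβ array 1 (log2 difference 0.49). The second was lost on leaving out 3 of 8 arrays (0.45 without siKlf4 + TGFβ array 2). Pfkfb4 had log2 values of 6.32 and 6.35 on the siKlf4 + TGFβ arrays, 6.82 and 7.06 on the siKlf4 arrays, 5.99 and 5.93 on the siControl + TGFβ arrays and 6.05 and 5.91 on the siControl arrays, highest on the siKlf4 arrays. It was higher for siKlf4 without TGFβ by 0.96 ± 0.10 (1.94-fold, adjusted p = 0.000157), and in siKlf4 it was lower with TGFβ than without (-0.60, adjusted p = 0.00421). With TGFβ it was called higher in siKlf4 against siControl by 0.38 (adjusted p = 0.0236). That call was lost on leaving out 4 of 8 arrays (log2 difference 0.34 without siControl + TGFβ array 2). The interaction of Pfkfb4, -0.58 ± 0.14, was not called (adjusted p = 0.0993). Slc16a3, a lactate exporter, was called nowhere.

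The pentose phosphate enzymes measured were all lower somewhere and higher nowhere. Transketolase (Tkt), of the branch that exchanges sugars with glycolysis, had log2 values of 9.51 and 9.49 on the siKlf4 + TGFβ arrays, 9.74 and 9.62 on the siKlf4 arrays, 10.06 and 10.08 on the siControl + TGFβ arrays and 10.29 and 10.23 on the siControl arrays. Both siKlf4 groups lay below both siControl groups, and Tkt was lower by -0.76 ± 0.08 in siKlf4 + TGFβ against siControl (1.69-fold, adjusted p = 7.07e-05) and by -0.57 in siKlf4 against siControl both without and with TGFβ (adjusted p = 0.000746 and 0.000609). Transaldolase (Taldo1), its partner in that branch, had log2 values of 7.86 and 7.78 on the siKlf4 + TGFβ arrays, 8.06 and 8.07 on the siKlf4 arrays, 7.90 and 7.84 on the siControl + TGFβ arrays and 8.28 and 8.19 on the siControl arrays, so that the TGFβ arrays of either siRNA were the low ones. Taldo1 was lower by -0.42 in siKlf4 + TGFβ against siControl (adjusted p = 0.00296) and by -0.37 for TGFβ in siControl (adjusted p = 0.0161). The second call was lost on leaving out 3 of 8 arrays (-0.34 without siControl + TGFβ array 2). Pgd, which releases carbon dioxide and NADPH in the oxidative branch, was lower in siKlf4 against siControl without TGFβ (-0.39, adjusted p = 0.00563).

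**Figure D2:**
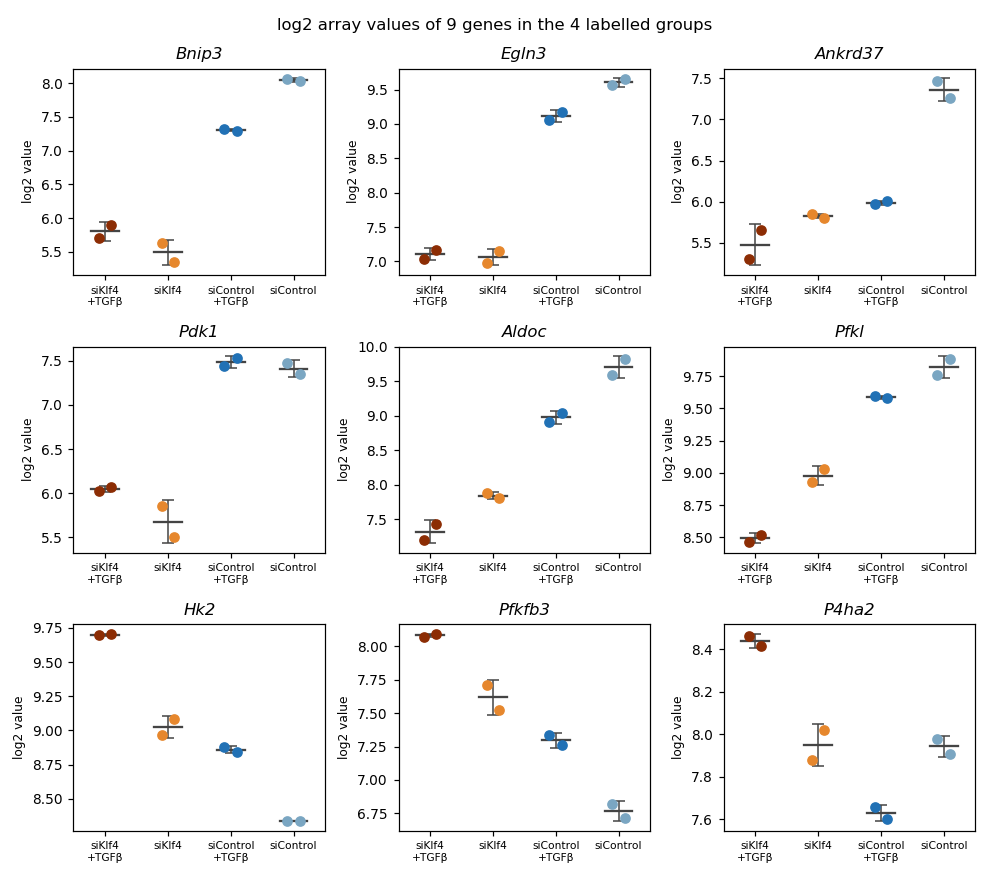
log2 values (vertical axis) of 9 genes in the 4 labelled groups (horizontal axis), each point 1 array, with the group mean as a bar and the SD of 2 arrays as whiskers. Bnip3, Egln3, Pdk1 and Aldoc are low in both siKlf4 groups, Hk2 and Pfkfb3 are highest in siKlf4 + TGFβ, and P4ha2 is highest in siKlf4 + TGFβ and lowest in siControl + TGFβ.

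Of the oxygen sensing genes, Egln3 fell furthest. This prolyl hydroxylase, itself a known Hif target, had log2 values of 7.04 and 7.17 on the siKlf4 + TGFβ arrays, 6.98 and 7.15 on the siKlf4 arrays, 9.06 and 9.17 on the siControl + TGFβ arrays and 9.56 and 9.65 on the siControl arrays. The siKlf4 groups overlapped each other and lay far below the siControl groups. Egln3 differed by -2.50 ± 0.09 between siKlf4 + TGFβ and siControl (5.66-fold lower, adjusted p = 2.93e-07), by -2.54 for siKlf4 without TGFβ (5.83-fold lower, adjusted p = 6.92e-07) and by -2.01 with TGFβ (4.03-fold lower, adjusted p = 1.1e-06). For TGFβ against none, as labelled, Egln3 was lower in siControl (-0.49, adjusted p = 0.00987), a call lost without siControl + TGFβ array 1 (-0.43). In siKlf4 it was not called (0.04, adjusted p = 0.874).

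Egln1, the main prolyl hydroxylase of well oxygenated cells, behaved otherwise. Its log2 values were 9.21 and 9.32 on the siKlf4 + TGFβ arrays, 9.23 and 9.27 on the siKlf4 arrays, 8.83 and 8.83 on the siControl + TGFβ arrays and 9.25 and 9.37 on the siControl arrays, the siControl + TGFβ arrays alone being low. It was therefore higher in siKlf4 against siControl with TGFβ (0.44 ± 0.08, adjusted p = 0.00407), where Egln3 was lower. With TGFβ in siControl Egln1 was lower (-0.48, adjusted p = 0.00602). That call was lost on leaving out either siControl + TGFβ array (-0.48 in each case). Epas1, a Hif alpha subunit, had log2 values of 6.36 and 6.30 on the siKlf4 + TGFβ arrays, 6.17 and 6.24 on the siKlf4 arrays, 7.32 and 7.28 on the siControl + TGFβ arrays and 7.02 and 6.82 on the siControl arrays. The siKlf4 groups lay below the siControl groups, and the siControl + TGFβ arrays were the highest. Epas1 differed by -0.59 ± 0.09 in siKlf4 + TGFβ against siControl (1.51-fold lower, adjusted p = 0.000761) and by -0.97 in siKlf4 against siControl with TGFβ (1.96-fold lower, adjusted p = 4.49e-05). Hif1a, the other alpha subunit, had log2 values between 9.53 and 10.01 on all arrays and was not called in the F test (adjusted p = 0.104). It was called lower once, on the siKlf4 against the siControl + TGFβ arrays (-0.33, adjusted p = 0.0329). That call was lost on leaving out 5 of 8 arrays (-0.25 without siControl + TGFβ array 1). Vhl was called higher in siKlf4 against siControl with TGFβ (0.24, adjusted p = 0.0498), a call that was lost on leaving out any of the 8 arrays. It was called lower with TGFβ in siControl (-0.29), a call lost on leaving out 6 of 8 arrays. Its log2 values were 7.25 and 7.21 on the siControl + TGFβ arrays and 7.51 and 7.54 on the siControl arrays.

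Among the 12 Hif targets outside glycolysis, 1 was higher and 6 lower on the siKlf4 + TGFβ than on the siControl arrays (14.7% and 15.3% of all genes), with a median log2 difference of -0.34. Bnip3, a receptor that marks mitochondria for autophagy, had log2 values of 5.71 and 5.90 on the siKlf4 + TGFβ arrays, 5.63 and 5.35 on the siKlf4 arrays, 7.32 and 7.30 on the siControl + TGFβ arrays and 8.07 and 8.03 on the siControl arrays. The siKlf4 groups lay well under the siControl groups, and TGFβ arrays lay below the others in siControl but above them in siKlf4. The difference for TGFβ in siKlf4 was not called. On the Bnip3 probe set numbered on its own chromosome, described below, it was 0.01 (adjusted p = 0.976). Bnip3 differed by -2.24 ± 0.11 between siKlf4 + TGFβ and siControl (4.73-fold lower, adjusted p = 6.73e-07), by -2.56 for siKlf4 without TGFβ (5.88-fold lower, adjusted p = 1.23e-06) and by -1.50 with TGFβ (2.84-fold lower, adjusted p = 1e-05). Its relative Bnip3l differed less, by -0.46 ± 0.08 between siKlf4 + TGFβ and siControl (adjusted p = 0.00185).

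Ankrd37, an ankyrin repeat protein known for its induction by hypoxia, had log2 values of 5.30 and 5.66 on the siKlf4 + TGFβ arrays, 5.84 and 5.81 on the siKlf4 arrays, 5.97 and 6.01 on the siControl + TGFβ arrays and 7.46 and 7.26 on the siControl arrays. The siControl arrays were high, and no array of the other 3 groups was above 6.01. Ankrd37 was lower by -1.89 ± 0.12 in siKlf4 + TGFβ against siControl (3.7-fold, adjusted p = 3.57e-06), by -1.54 for siKlf4 without TGFβ (2.91-fold, adjusted p = 3.09e-05) and by -1.38 for TGFβ in siControl (2.6-fold, adjusted p = 0.000276). Higd1a, a mitochondrial protein induced by hypoxia, had log2 values of 6.01 and 5.93 on the siKlf4 + TGFβ arrays, 5.83 and 5.90 on the siKlf4 arrays, 6.34 and 6.45 on the siControl + TGFβ arrays and 6.92 and 6.97 on the siControl arrays, with the siControl arrays highest. It differed by -0.97 ± 0.08 between siKlf4 + TGFβ and siControl (1.96-fold lower, adjusted p = 1.8e-05). Car12, a membrane carbonic anhydrase, was lower in siKlf4 against siControl without TGFβ (-0.65, adjusted p = 0.00216) and with TGFβ (-0.98, adjusted p = 0.000135). It was called higher with TGFβ in siControl (0.42, adjusted p = 0.0328), a call lost on leaving out 5 of 8 arrays (adjusted p up to 0.205 without siControl + TGFβ array 2). Mxi1, a repressor that competes with Myc for Max, and Kdm3a, a histone demethylase, were lower for siKlf4 without TGFβ (-0.53 and -0.34, adjusted p = 0.000749 and 0.0247). The call of Kdm3a was lost on leaving out 3 of 8 arrays (-0.24 without siKlf4 array 2). In siKlf4, TGFβ against none gave a higher Mxi1 (0.50, adjusted p = 0.00206). Car9 and Adm, of the dim probe sets named above, were called nowhere.

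P4ha1 and P4ha2, catalytic subunits of the enzyme that hydroxylates prolines of collagen, parted. P4ha2 had log2 values of 8.46 and 8.42 on the siKlf4 + TGFβ arrays, 7.88 and 8.02 on the siKlf4 arrays, 7.66 and 7.60 on the siControl + TGFβ arrays and 7.98 and 7.91 on the siControl arrays. The siKlf4 + TGFβ arrays stood above all others and the siControl + TGFβ arrays below all others, while the groups without TGFβ overlapped. P4ha2 was higher by 0.50 ± 0.08 in siKlf4 + TGFβ against siControl (1.41-fold, adjusted p = 0.00146) and by 0.81 in siKlf4 against siControl with TGFβ (1.75-fold, adjusted p = 9.3e-05). P4ha1 had log2 values of 8.03 and 7.88 on the siKlf4 + TGFβ arrays, 8.38 and 8.37 on the siKlf4 arrays, 8.10 and 8.07 on the siControl + TGFβ arrays and 8.58 and 8.51 on the siControl arrays, low on the TGFβ arrays of either siRNA. It was lower by -0.59 ± 0.08 in siKlf4 + TGFβ against siControl (1.5-fold, adjusted p = 0.000502). Ndrg1, a growth arrest gene induced by hypoxia, was lower with TGFβ in siControl (-0.49, adjusted p = 0.0041). With TGFβ it was called higher in siKlf4 against siControl (0.27, adjusted p = 0.0359), a call lost on leaving out 4 of 8 arrays (adjusted p up to 0.207 without siKlf4 + TGFβ array 2).

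For 5 genes the brightest probe set is numbered among probe sets of another chromosome than the gene, and this bears on what their values measure. The gene lies on chromosome 10 for Hk1, 7 for Bnip3, 9 for Higd1a and Pkm and 19 for Pgam1, while their probe sets are numbered among those of chromosome 14, 14, 3, 5 and 7. The Hk1 probe set is annotated through 1 record that it shares with 15 probe sets of several symbols, all of which name Rpl17. Hk1, Bnip3, Higd1a and Pkm have a second probe set numbered on the chromosome of the gene, which was tried after the data were seen. With it Bnip3 was still lower in siKlf4 + TGFβ against siControl (-1.76 ± 0.13, adjusted p = 8.75e-06) and so was Pkm (-0.66 ± 0.08, adjusted p = 0.000127). Higd1a had values from 4.28 to 5.56 on that probe set and its difference of -0.23 ± 0.28 was not called (adjusted p = 0.65). Hk1 was lower on it with TGFβ in siControl (-0.36, adjusted p = 0.0197) and in siKlf4 + TGFβ against siControl (-0.28, adjusted p = 0.0282). Pgam1 has no other probe set with 1 symbol.

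Set side by side, the glycolytic enzymes and the Hif targets outside glycolysis had medians of -0.38 and -0.34 between siKlf4 + TGFβ and siControl, the comparison free of the arrays whose labels may be exchanged. The 4 comparisons that follow contain those arrays and would change places in pairs under an exchange. For siKlf4 against siControl without TGFβ the medians were -0.41 for the 14 glycolytic enzymes, 2 of them higher and 8 lower, and -0.35 for the 12 Hif targets, 7 of them lower. Over all genes 9.98% were higher and 9.71% lower, so the higher enzymes were near that background. With TGFβ the glycolytic enzymes again had a median of -0.40, with 2 higher and 8 lower, whereas the Hif targets had a median of -0.12, with 2 higher and 4 lower. Here 12.3% of all genes were higher and 11.9% lower, and the higher counts of both lists were near that share. For TGFβ against none in siControl, as labelled, 1 of 14 glycolytic enzymes was higher (Hk2) and 1 lower (Aldoc), with a median of -0.11. These counts were near the shares over all genes, 5.81% higher and 6.65% lower. Of the 12 Hif targets 7 were lower, with a median of -0.32, and Car12 was higher. Without either siControl + TGFβ array the lower Hif targets numbered 4, and Car12 was not called without these, siControl array 2 or either siKlf4 + TGFβ array. Higd1a, 1 of the 7, was at 0.19 on the probe set of its own chromosome (adjusted p = 0.76). In siKlf4 the counts were 2 higher and 5 lower of the glycolytic enzymes (median -0.11) and 2 higher and 1 lower of the Hif targets (median 0.10). The shares over all genes in siKlf4 were 6.01% higher and 6.87% lower. The glycolytic enzymes counted 1 higher and 1 lower there without siKlf4 + TGFβ array 1, and 3 lower without siKlf4 + TGFβ array 2 or without either siKlf4 array. The median of a list varied between replicate arrays with an SD of 0.0234 for glycolytic enzymes and 0.0276 for Hif targets. The difference between the lists is a description of these arrays and was not tested. Proliferation genes moved in each of these comparisons too, with median log2 differences of -0.70 for siKlf4 without TGFβ and -1.44 with TGFβ, -0.45 for TGFβ in siControl and -1.13 in siKlf4, and their part in the result was not tested.

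**Figure D3:**
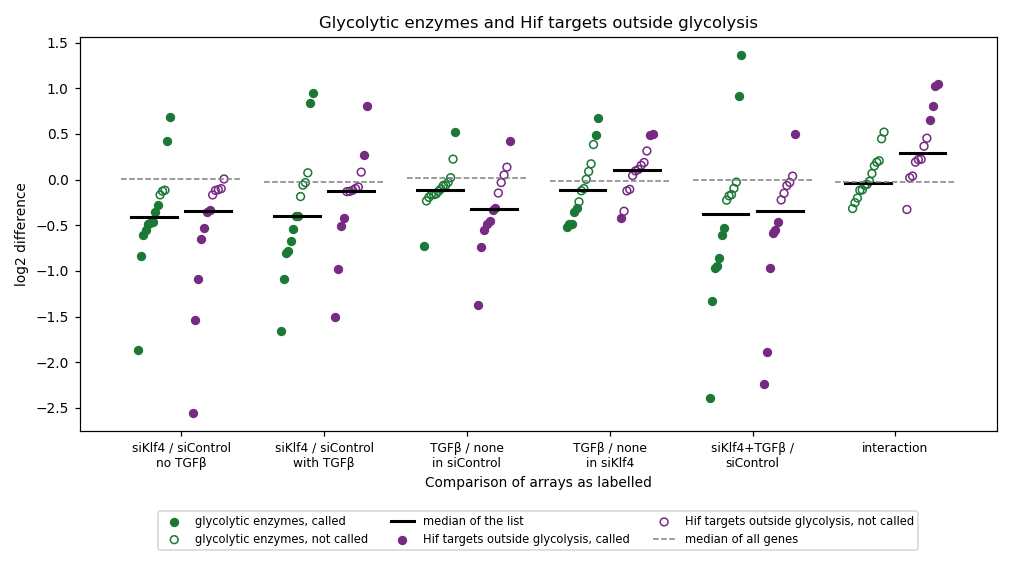
log2 differences (vertical axis) of the 14 glycolytic enzymes and the 12 Hif targets outside glycolysis in 6 comparisons (horizontal axis), each point 1 gene, filled where called, with black bars for the median of each list and a dashed line for the median of all genes. The list medians are close for siKlf4 without TGFβ (-0.41 and -0.35) and apart for siKlf4 with TGFβ (-0.40 and -0.12).

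The interaction asks whether the effect of siKlf4 with TGFβ differs from that without. It was called higher for 4 of the 39 genes (0.547% of all genes) and lower for 0 (0.978% of all genes), and all 4 were Hif targets outside glycolysis: Bnip3, Ankrd37, P4ha2 and Higd1a. At an unadjusted p under 0.05, 10 of the 39 had an estimate above 0 and 2 (Ldha and Pfkfb4) one below 0, and ordinary analysis of variance called 0 in either direction. Bnip3 had an interaction of 1.05 ± 0.15 (95% interval 0.70 to 1.40, adjusted p = 0.0161), since siKlf4 against siControl differed by -1.50 with TGFβ and by -2.56 without. For Ankrd37 it was 1.03 ± 0.17 (0.64 to 1.42, adjusted p = 0.0264), from -0.51 with TGFβ and -1.54 without. The call with TGFβ was lost on leaving out 3 of 8 arrays (-0.33 without siKlf4 + TGFβ array 1). P4ha2 had 0.80 ± 0.12 (0.54 to 1.07, adjusted p = 0.0168), from 0.81 with TGFβ and 0.01 without. Higd1a had 0.66 ± 0.12 (0.39 to 0.92, adjusted p = 0.0319), from -0.43 with TGFβ and -1.08 without. In all, 11 of the 12 Hif targets had an estimate above 0, with a median of 0.29, against 6 of 14 glycolytic enzymes with a median of -0.04. These 4 calls were not firm. Leaving out 1 array in turn removed that of Bnip3 in 5 of 8 cases (adjusted p up to 0.0856 without siControl + TGFβ array 2), Ankrd37 in 7 (0.119 without siControl + TGFβ array 1), P4ha2 in 4 (0.0978 without siControl + TGFβ array 2) and Higd1a in 8 (0.159 without siControl + TGFβ array 1). On the probe sets numbered on their own chromosome the interaction was 0.61 for Bnip3 (adjusted p = 0.193) and 0.01 for Higd1a (adjusted p = 0.995). Proliferation genes moved here as well, 10 of 13 lower with a median of -0.74, and their part in the result was not tested.

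**Figure D4:**
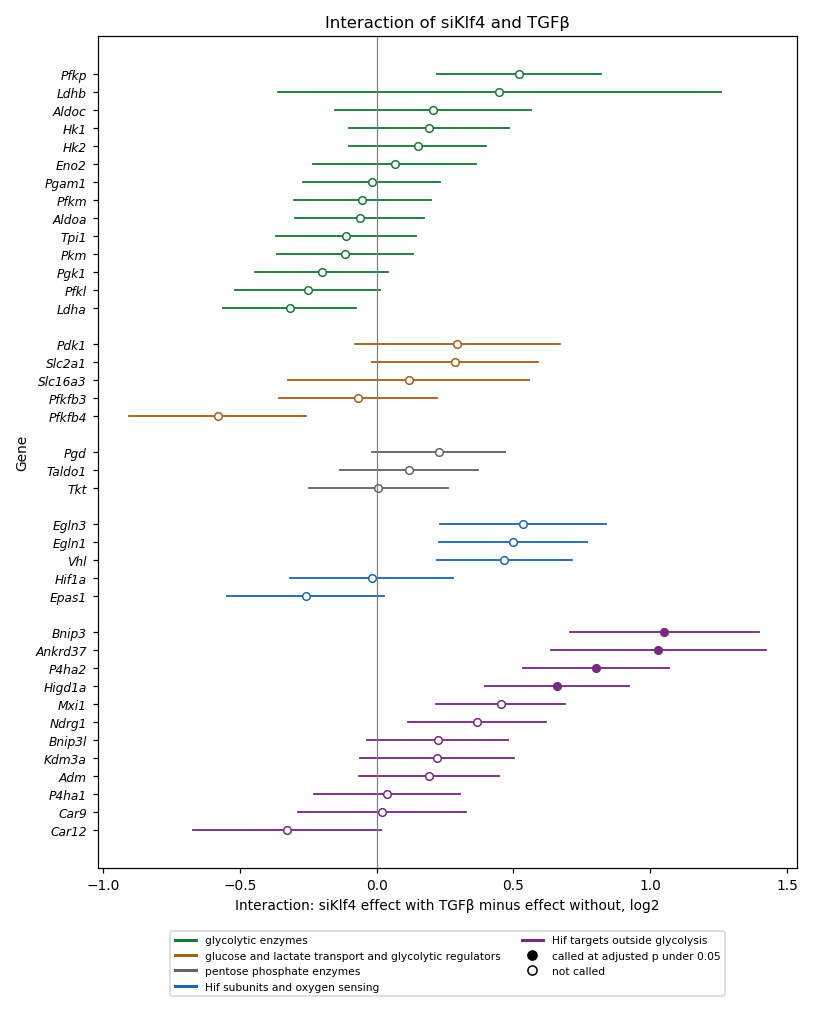
Interaction estimates (horizontal axis, log2, siKlf4 effect with TGFβ minus effect without) of the 39 genes (vertical axis, by list), with 95% intervals as lines and filled points where called. Bnip3, Ankrd37, P4ha2 and Higd1a are the filled points, between 0.66 and 1.05, and 11 of the 12 Hif targets lie above 0.

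Other genes of the same pathways behaved in part alike. Of 32 other measured glycolysis and pyruvate genes, 6 were higher and 10 lower in siKlf4 + TGFβ against siControl, with a median log2 difference of -0.08. The shares over all genes, 14.7% higher and 15.3% lower, are the background for this and the next 2 lists. The largest were Slc16a1, a lactate transporter (-2.11, adjusted p = 9.86e-07), Fbp2, a fructose bisphosphatase of gluconeogenesis (-2.08, adjusted p = 1.45e-06), and Pcx, pyruvate carboxylase (-1.40, adjusted p = 4e-06). Slc16a1 had log2 values of 8.06 and 8.37 on the siKlf4 + TGFβ arrays, 9.49 and 9.50 on the siKlf4 arrays, 9.81 and 9.95 on the siControl + TGFβ arrays and 10.36 and 10.29 on the siControl arrays, each group below the one named after it. Of 8 other pentose phosphate and ribose phosphate genes, 2 were higher and 2 lower. Prps2 (-1.15, adjusted p = 9.76e-06) and Prps1 (-0.56, adjusted p = 0.00123), which make the ribose donor of nucleotides, were lower, and Pgls, of the oxidative branch, was higher (0.40, adjusted p = 0.0155). Of 36 other Hif pathway genes, 10 were higher and 13 lower, with a median of -0.10. Bhlhe40, a transcriptional repressor also counted among the TGFβ-induced genes above (1.76, adjusted p = 2.36e-06), and Plin2, a lipid droplet coat protein (1.73, adjusted p = 4.25e-07), were higher, and Gbe1, the glycogen branching enzyme (-1.67, adjusted p = 5.82e-07), was lower. Plin2 had log2 values of 11.53 and 11.58 on the siKlf4 + TGFβ arrays, 11.50 and 11.54 on the siKlf4 arrays, 9.76 and 9.74 on the siControl + TGFβ arrays and 9.79 and 9.85 on the siControl arrays, so that both siKlf4 groups lay above both siControl groups. For siKlf4 against siControl in cells without TGFβ, the glycolysis and pyruvate list held 2 higher and 9 lower genes, the pentose phosphate list 3 lower genes and the Hif pathway list 9 higher and 10 lower genes (9.98% and 9.71% of all genes). With TGFβ, siKlf4 against siControl gave 3 higher and 10 lower, 1 higher and 3 lower, and 9 higher and 8 lower in the same order of lists (12.3% and 11.9% of all genes). TGFβ against none in siControl gave 2 higher and 4 lower, 2 higher and 1 lower, and 3 higher and 10 lower (5.81% and 6.65% of all genes), and in siKlf4 1 higher and 5 lower, 1 higher and 1 lower, and 5 higher and 4 lower (6.01% and 6.87% of all genes).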

How the data were processed

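RNA of 8 NMuMG samples, 2 a group, was hybridised by the authors to Affymetrix mouse gene arrays. The deposited values are 1 log2 signal per probe set and array, background-corrected, quantile-normalised and summarised by robust multi-array average (RMA) by the authors, with oligo 1.14.0 named in the submitters' processing notes. The base of the logarithm is not given in the sources used here and was read from the range of the values. A one-way analysis of variance is the test named in the study's methods. Of 34760 probe sets, 21640 had 1 gene symbol in the platform annotation, 1321 had several and 11799 were not listed. RefSeq held 21553 of the 21640 by Entrez ID and changed 0 symbols. The brightest probe set of each of 19937 genes was kept.

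The values were fitted in R 4.3.3 with limma 3.58.1, with a mean for each group, 8 arrays in 1 fit and no covariate (4 residual and 4.93 prior degrees of freedom). Moderated tests of 7 contrasts, and an F test over the 4 groups as the one-way layout of the methods, were adjusted by Benjamini-Hochberg over all genes at 0.05. The fit was tested on simulated data. The genes and lists were chosen with earlier results of these data known, and lists have no test of their own. Values on every array are given for the 3 largest called differences between siKlf4 + TGFβ and siControl in each list, for isozymes called in opposite directions and for genes called in the interaction. Of the other pathway lists the 3 largest are named. Other genes with values were chosen after their values were seen. Alternatives were array weights, cyclic loess, a second quantile normalisation, limma's trend and robust options, ordinary analysis of variance, only the arrays compared, averaging a gene's probe sets, no genes of the dimmest 30%, other thresholds, a replicate block, each array left out in turn, and, added after the data were seen, probe sets numbered on the gene's own chromosome. That numbering was read from the annotated genes of the 10 probe sets on each side. Array medians lay between 4.90 and 5.00 and no 2 arrays held the same values. The number of arrays limits the precision.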

Additional observations from a re-analysis of the deposited data

Results flagged for a closer look

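A difference of the siKlf4 effect between cells with and without TGFβ, by the test of the interaction in limma, marked 10 genes. Of the 39 genes followed, these were Bnip3 (1.05, adjusted p = 0.0161), Ankrd37 (1.03, adjusted p = 0.0264), P4ha2 (0.80, adjusted p = 0.0168) and Higd1a (0.66, adjusted p = 0.0319), described above with the arrays whose omission ends the call. Among the other pathway genes, Plod2, a collagen lysyl hydroxylase, had an interaction of 1.29 (adjusted p = 0.00517), since it was higher in siKlf4 against siControl by 2.19 with TGFβ and by 0.90 without. Ddit4, an inhibitor of mTOR signalling, had 1.15 (adjusted p = 0.0128), from 2.06 with TGFβ and 0.91 without. Ero1a, an oxidase of the endoplasmic reticulum, had 1.01 (adjusted p = 0.00611), from -0.21 with TGFβ and -1.22 without. Ciart, a circadian repressor, had 0.94 (adjusted p = 0.0191), from -0.29 with TGFβ and -1.23 without. Gys1, glycogen synthase, had 0.75 (adjusted p = 0.0155), from -0.05 with TGFβ and -0.80 without. Slc16a1, the lactate transporter, had -0.83 (adjusted p = 0.0376), the only 1 of the 10 below 0. The Hif pathway list thus gave 5 higher of 36 genes, beside 0.547% of all genes. Calls among these other pathway genes were not followed under the alternatives or with an array left out. Proliferation genes moved in the same contrast, 10 of 13 lower, and their part in these values was not tested.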

How the results depend on the processing

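The values are those of 2 arrays a group, and the lists share arrays between comparisons. Over the settings run, 2 single-gene values turned in sign with a call on either side, both on the probe sets numbered on the gene's own chromosome, an alternative chosen after seeing the data: Higd1a, called lower for TGFβ in siControl, was at 0.19 (adjusted p = 0.76), and Hk1, not called for siKlf4 against siControl + TGFβ, was at 0.32 (adjusted p = 0.0187). With those probe sets the interaction called 2 genes higher, and the medians were -0.45, -0.16, -0.18 and -0.44 for glycolytic enzymes in siKlf4 without TGFβ, TGFβ in siControl, TGFβ in siKlf4 and siKlf4 + TGFβ against siControl, and -0.23, 0.0697 and -0.23 for Hif targets in the last 3. The mean of all probe sets gave -0.35, -0.16 and -0.41 for glycolytic enzymes in siKlf4 without TGFβ, TGFβ in siControl and siKlf4 + TGFβ against siControl, and -0.22 and -0.31 for Hif targets in the last 2. A second quantile normalisation gave glycolytic enzymes -0.44 for siKlf4 with TGFβ, -0.0899 for TGFβ in siControl and -0.36 for siKlf4 against siControl + TGFβ, and Hif targets -0.29 for TGFβ in siControl, 0.13 in siKlf4 and -0.18 for siKlf4 against siControl + TGFβ. Without the dimmest genes Hif targets had -0.46 for siKlf4 + TGFβ against siControl and -0.16 for siKlf4 against siControl + TGFβ. With only the arrays compared, 2 genes were higher for TGFβ in siControl and 4 for siKlf4 against siControl + TGFβ. The trend and robust options called 9 genes higher and 1 lower in the interaction, and ordinary analysis of variance 0 higher there, 2 higher for TGFβ in siControl and 3 in siKlf4. At an adjusted p under 0.01, 5 were higher for siKlf4 with TGFβ, 2 higher for TGFβ in siControl, 3 lower for TGFβ in siKlf4, 4 higher for siKlf4 against siControl + TGFβ and 0 higher in the interaction, and at 0.1 the interaction called 7 higher and 1 lower. Leaving out each array in turn, genes called higher numbered 5 to 7 for siKlf4 with TGFβ, 1 to 4 for TGFβ in siControl, 3 to 7 in siKlf4, 3 to 7 for siKlf4 against siControl + TGFβ and 0 to 3 in the interaction, and genes called lower 5 to 12 for TGFβ in siControl and 3 to 7 in siKlf4. The median of glycolytic enzymes then ran between -0.42 and -0.28 for siKlf4 without TGFβ, -0.43 and -0.37 with it, -0.16 and -0.0890 for TGFβ in siKlf4, -0.41 and -0.35 for siKlf4 + TGFβ against siControl and -0.33 and -0.28 for siKlf4 against siControl + TGFβ. That of Hif targets ran between -0.42 and -0.27 for siKlf4 without TGFβ, -0.35 and -0.29 for TGFβ in siControl, 0.0725 and 0.12 in siKlf4 and -0.22 and -0.18 for siKlf4 against siControl + TGFβ. Same-numbered arrays deviated together between siKlf4 and siControl without TGFβ (r = 0.382) and hardly between the others (-0.0503 to 0.0383). The numbers thus pair no other groups, and the comparison of siKlf4 with siControl without TGFβ was fitted without pairing. With a replicate block 30 genes were called across the 4 groups, in place of 31, and 7 higher for siKlf4 with TGFβ, in place of 8. Of single-gene results over all settings, 4610 kept their side of the threshold, 200 lost the call and 56 gained one. A turn in sign between values that were not called counted as kept. The causes were not tested.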
